A study of Mus musculus with 12 samples.

Results

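Immediate early genes are the genes that cells transcribe first after a stimulus. Here 10 of them were followed: Fos, Fosb, Jun, Junb, Jund, Egr1, Ier2, Ier3, Atf3 and Klf6. They were taken by name, by a rule that uses no measured value, though with earlier results of these data known, out of 21883 protein-coding genes on chromosomes 1 to 19, X and Y of the RefSeq table for mouse assembly GRCm38.p6. A peak was assigned to a gene when it overlapped the gene body or the 1 kb on either side by at least 1 bp.

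The series mapped R-loops, in which an RNA strand pairs with DNA and displaces the other DNA strand, with S9.6, an antibody against RNA-DNA hybrids, in a study of AAV (adeno-associated virus) editing of the genome. Its 12 libraries form 6 groups of 2: S9.6 immunoprecipitate, immunoprecipitate with RNase H1 (an enzyme that removes the RNA of a hybrid), and input, each from HEPA1-6 cells and from liver. HEPA1-6 is a mouse hepatoma line, and the liver came from C57/Bl6 mice whose age is not given in the sources used here; both are labelled wild type, untreated and hepatocyte. The results below rest on 1 deposited peak list per source, named as merged immunoprecipitate against input, with 28717 peaks for HEPA1-6 and 14908 for liver.

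There are no replicate lists, so no difference between the sources has a replicate check or a p-value. The depth is unknown and the lists differ in length, so a peak that is missing from a list may lie below its threshold. The lists do not show what RNase H1 removed. In bulk material, fewer cells with an R-loop and fewer R-loops per cell cannot be told apart. As a check of the liver label, 4 of 12 hepatocyte marker genes held a liver peak (Alb, Trf, Fah and Hnf4a) and 8 did not (Apoa1, Ttr, Cps1, Pck1, Cyp2e1, Tat, Serpina1e and G6pc), while 5 of 5 genes of cycling cells did. In HEPA1-6 these counts were 3 of 12 and 5 of 5. The hepatocyte shares, 33.3% in liver and 25% in HEPA1-6, stood beside 29.7% and 42.0% of all protein-coding genes, so these counts do not set the markers apart in liver. Markers of other liver cells held a liver peak at 1 of 5 genes for Kupffer cells (Csf1r), 0 of 4 for endothelium, 1 of 4 for stellate cells (Dcn) and 1 of 4 for cholangiocytes (Sox9). The HEPA1-6 counts for these cell types were the same. The part of cell composition in the results below was not tested.

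Fos and Jun proteins carry a basic leucine zipper and pair to form AP-1, a transcription factor that passes growth factor and stress signals on to target genes. Egr1 and Klf6 are zinc finger factors, and Atf3 is a leucine zipper factor of the stress response. In liver these genes are known to be switched on after partial hepatectomy and injury. R-loops form where nascent RNA pairs back with its template, and are known from GC-rich promoters and from gene ends.

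The promoter table held 8 of the 10 genes, all but Egr1 and Ier2. A window of 300 bases, 250 before and 50 after the gene start, was wholly under a peak of both lists at Fos, Junb and Jund. It was wholly under a HEPA1-6 peak only at Atf3, and 224 of its bases were at Jun. It was under a liver peak only at Klf6 and under no peak at Fosb and Ier3. Across 21262 windows of protein-coding genes, 16.2% lay wholly under a HEPA1-6 peak and 9.33% under a liver peak. The 250 bases before the start are shown for 1 gene of each kind, from RefSeq (GRCm38.p6), 5′ to 3′ in the direction of the gene: Fos under peaks of both lists, Atf3 under HEPA1-6 peaks, Klf6 under liver peaks and Ier3 under none. Capitals mark the TATA box TATAAA and the GC box GGGCGG, on either strand. The stretches are chr12:85473640-85473889 (plus strand) for Fos, chr1:191183334-191183583 (minus strand) for Atf3, chr13:5861239-5861488 (plus strand) for Klf6 and chr17:35821463-35821712 (plus strand) for Ier3.
Fos: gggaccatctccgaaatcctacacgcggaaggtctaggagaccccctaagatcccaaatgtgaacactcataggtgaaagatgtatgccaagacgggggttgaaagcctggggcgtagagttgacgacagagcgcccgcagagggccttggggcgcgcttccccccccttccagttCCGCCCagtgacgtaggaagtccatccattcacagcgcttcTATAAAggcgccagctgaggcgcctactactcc
Atf3: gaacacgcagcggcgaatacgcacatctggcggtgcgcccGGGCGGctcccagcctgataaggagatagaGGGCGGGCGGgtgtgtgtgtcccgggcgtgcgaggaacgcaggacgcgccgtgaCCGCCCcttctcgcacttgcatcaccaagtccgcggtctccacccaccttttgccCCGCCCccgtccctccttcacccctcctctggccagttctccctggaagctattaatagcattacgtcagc
Klf6: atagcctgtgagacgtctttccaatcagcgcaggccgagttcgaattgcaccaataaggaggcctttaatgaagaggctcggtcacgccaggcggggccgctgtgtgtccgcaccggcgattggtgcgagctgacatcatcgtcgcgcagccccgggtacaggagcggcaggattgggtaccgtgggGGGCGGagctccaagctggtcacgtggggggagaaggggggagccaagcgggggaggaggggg
Ier3: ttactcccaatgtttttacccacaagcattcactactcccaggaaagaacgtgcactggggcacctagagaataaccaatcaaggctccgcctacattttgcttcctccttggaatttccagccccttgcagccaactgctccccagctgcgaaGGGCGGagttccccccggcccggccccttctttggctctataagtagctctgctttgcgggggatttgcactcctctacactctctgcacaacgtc

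In these 4 stretches the TATA box appeared at Fos, from 33 to 28 bases before the start. Atf3 had 5 matches to the GC box, a pair of them overlapping, and Fos, Klf6 and Ier3 had 1 each. Over all 8 windows, 6 held a GC box, against 46.2% of the 21262 windows, and 2 held a TATA box (Fos and, directly at its start, Junb), against 12.6%. No window of the 8 had the cAMP response element TGACGTCA (2.23% of all windows), an AP-1 site TGACTCA or TGAGTCA (4.66%) or a CArG box, the serum response element (1.52%). Both strands were searched. A match describes letters and is no evidence of a bound factor, and no match speaks only of this window.

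All 10 immediate early genes held a HEPA1-6 peak and 9 held a liver peak, the exception being Atf3. The shares over all protein-coding genes were 42.0% in HEPA1-6 and 29.7% in liver. Among the 7441 genes between the shortest and the longest of the 10 in length (1199 to 13038 bp), they were 39.9% and 28.6%. At 9 of the 10 genes a peak of one list overlapped a peak of the other, against 26.7% of all protein-coding genes and 27.2% of those in the length range. The peaks numbered 15 in HEPA1-6 and 13 in liver.

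**Figure D1:**
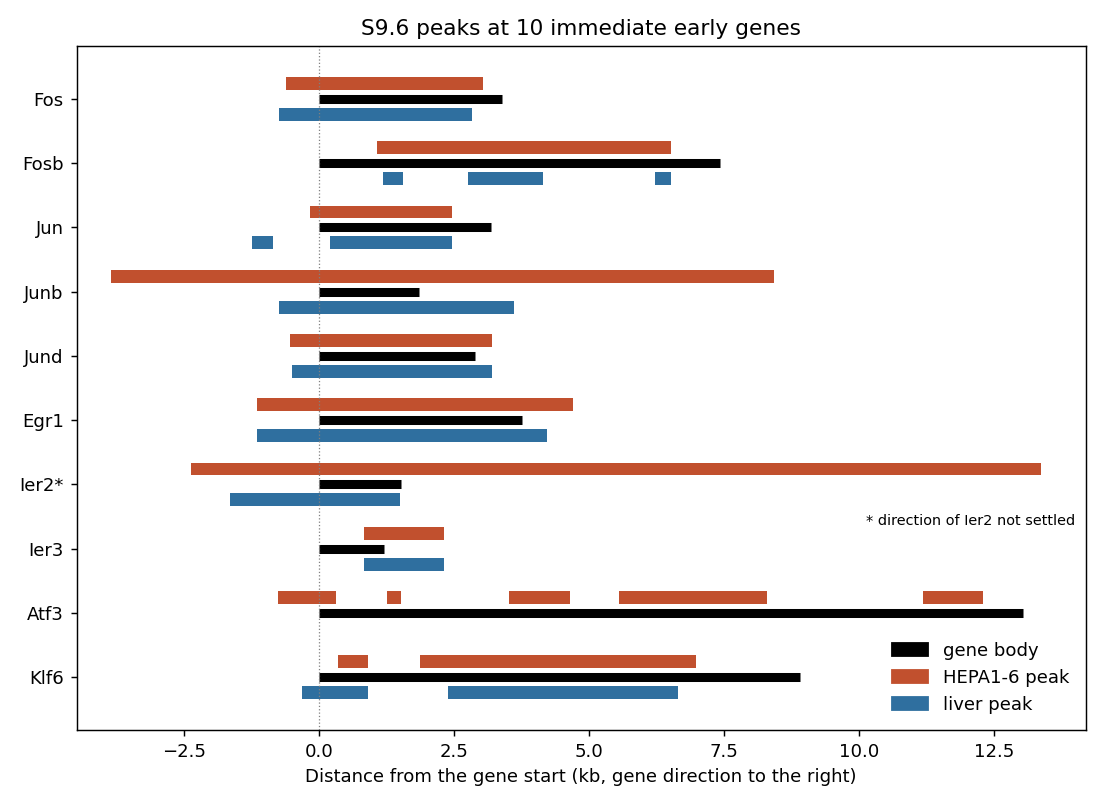
Position of each S9.6 peak relative to the gene start (kb, gene direction to the right) at the 10 genes; black bars are gene bodies, red bars HEPA1-6 peaks and blue bars liver peaks (Ier2, whose direction was not settled, is drawn from its lower coordinate). At Jund, Egr1 and Junb the gene lies wholly under a peak of both lists, Ier3 has the same interval in both, and Atf3 has 5 HEPA1-6 peaks and no liver peak.

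Peaks covered most of the gene body at most of these genes. At least 50% of the body lay under HEPA1-6 peaks at 8 of 10 genes, all but Ier3 and Atf3, against 18.7% of genes in the length range. The liver count was 7 of 10, without Fosb as well, against 8.33%. In HEPA1-6, Junb and Ier2 counted through peaks of 12284 and 15756 bp that also reached another protein-coding gene. The median share covered was 83.4% in HEPA1-6 and 77.0% in liver, with Atf3 counted as 0 in liver. Both background medians were 0, since most genes hold no peak. Among genes of the length range that hold a peak the medians were 46.0% and 25.0%, and among the members that do they were 83.4% in each list. The share covered can depend on gene length. The 10 genes had a median length of 3286 bp, and within the range of 1199 to 13038 bp lengths were not matched.

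**Figure D2:**
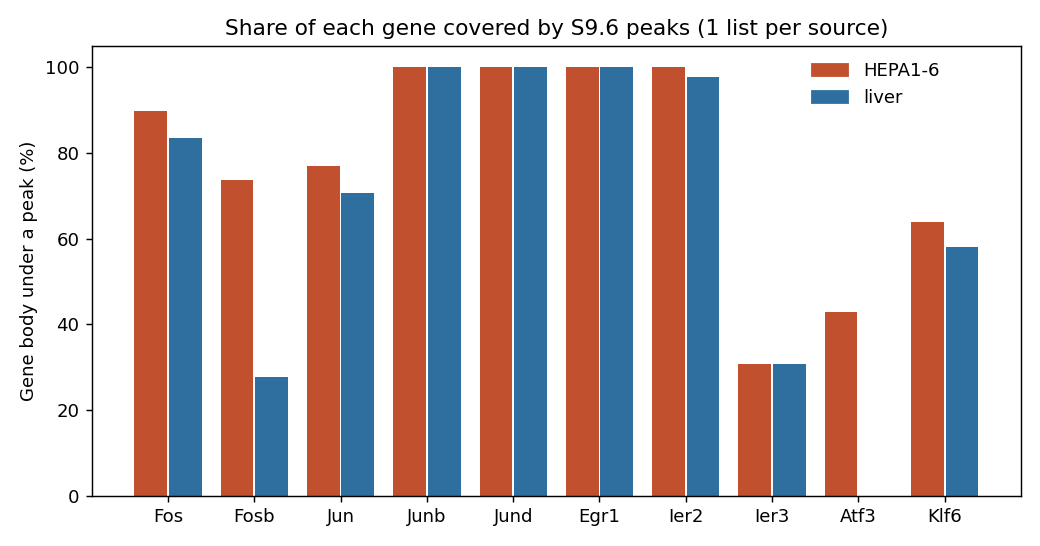
Share of each gene body under peaks (%), red bars for HEPA1-6 and blue bars for liver, 1 list per source and no error. Junb, Jund and Egr1 stand at 100% in both lists, Fosb falls from 73.6% in HEPA1-6 to 27.7% in liver, and Atf3 has no liver bar.

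Fos (chr12:85473890-85477274) encodes the Fos subunit of AP-1, the classic immediate early gene. Its HEPA1-6 peak ran from 85473280 to 85476930 and covered 89.8% of the gene. The liver peak ran from 85473135 to 85476711 and covered 83.4%. Both began before the start, by 610 bp and 755 bp, and stopped before the gene end, by 344 bp and 563 bp. They shared 3432 bp, which is 94.0% of the HEPA1-6 peak and 95.9% of the liver peak, yet ranked differently in their lists. The HEPA1-6 score was 36, at percentile 81.7 of its list, and the liver score was 18, at percentile 34.2, below the liver list's median of 22.

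Fosb (chr7:19302696-19310118) encodes a second Fos protein, FosB. A HEPA1-6 peak of 5460 bp (19303594 to 19309053, score 25, percentile 63.2) covered 73.6% of the gene, with 1065 bp free at the start and 898 bp at the end. The liver list had 3 separate peaks within that interval, of 296, 1399 and 364 bp, which together covered 27.7%. Their scores were 46, 18 and 43, and the highest stood at percentile 89.6. The short peaks lay towards either end of the wide HEPA1-6 peak and outscored the middle liver peak.

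Jun (chr4:95049036-95052222) encodes c-Jun, the main partner of Fos in AP-1. The HEPA1-6 peak (95049768 to 95052396, score 44, percentile 87.7) covered 77.0% of the gene and reached 174 bp before the start. The liver peak on the gene (95049768 to 95052020) began at the same base, covered 70.7% and stopped 202 bp inside the start. Its score was 42, at percentile 87.2. A further liver peak of 401 bp (95053072 to 95053472, score 56, percentile 93.3) lay from 850 to 1250 bp before the start, within Junos, a long noncoding RNA gene that starts beside Jun on the other strand; Junos was named after its values were seen. This peak was given the strand of Jun, and it is the highest-ranked liver peak of the locus.

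Junb (chr8:84976909-84978748) encodes JunB, an AP-1 subunit that often opposes c-Jun. Peaks of both lists covered the whole gene. The HEPA1-6 peak was 12284 bp wide (84970327 to 84982610, score 80, percentile 96.2). It extended 3862 bp before the start and 6582 bp past the end, into Prdx2, which encodes a peroxiredoxin that removes peroxides. The liver peak was 4353 bp wide (84975139 to 84979491, score 39, percentile 84.8), lay wholly inside it, and ran 743 bp before the start and 1770 bp past the end. It did not reach Prdx2. A score belongs to the whole interval, so the HEPA1-6 score is not one of Junb alone.

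Jund (chr8:70697739-70700616) encodes JunD, the Jun protein that is known to be present in resting cells. It had the highest HEPA1-6 rank of the 10 genes. The HEPA1-6 peak (70697204 to 70700932) scored 224, at rank 151 of 28717 and percentile 99.5, and the liver peak (70697238 to 70700932) scored 106, at rank 277 of 14908 and percentile 98.1. Both covered the whole gene, began 535 bp and 501 bp before it, and ended at the same base, 316 bp past the gene end. The peaks shared 99.1% of the HEPA1-6 interval, the closest match of the 10 genes after Ier3. They were given opposite strands, plus in HEPA1-6, as the gene, and minus in liver.

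Atf3 (chr1:191170296-191183333) encodes a leucine zipper repressor of the stress response that can pair with Jun proteins. It was the longest of the 10 genes and the only member without a liver peak. Its 5 HEPA1-6 peaks covered 42.8% of the gene, at scores of 16, 18, 16, 27 and 21 in the order of their coordinates. The highest was a 265 bp peak (191181819 to 191182083) at percentile 67.7. The peak at the promoter (191183017 to 191184094, score 21, percentile 51.6) reached 761 bp before the start. No peak of Atf3 stood above the HEPA1-6 percentile of 82.6 that is the median of the highest peak at genes of the length range.

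Klf6 (chr13:5861489-5870393) encodes a Krüppel-like zinc finger factor. It had a short peak at its first part and a wide one over its middle in both lists. In HEPA1-6 the short peak (5861832 to 5862393, score 35) began 343 bp inside the gene, and the wide peak (5863347 to 5868466) scored 195, at percentile 99.3. In liver the short peak (5861175 to 5862393, score 31) began 314 bp before the start, and the wide peak (5863876 to 5868143) scored 76, at percentile 96.5. The short peaks ended at the same base. Peaks covered 63.8% of the gene in HEPA1-6 and 58.1% in liver, and left 1927 bp and 2250 bp free at the gene end.

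Egr1 (chr18:34861207-34864956) encodes a zinc finger factor induced by serum, growth factors and injury. The gene lay wholly under a peak in both lists. The HEPA1-6 peak (34860061 to 34865915) scored 101, at percentile 97.5, and the liver peak (34860061 to 34865435) scored 44, at percentile 88.5. Both began at the same base, 1146 bp outside the gene. They extended 959 bp and 479 bp beyond the other boundary, which is the gene end if the strand given to both peaks, plus, is that of the gene.

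Ier2 (chr8:84661331-84662852) encodes a short nuclear protein induced by growth factors. Its liver peak (84659674 to 84662819, score 110, percentile 98.2, rank 262) had the highest liver rank of the 10 genes and covered 97.8% of the gene. Its HEPA1-6 peak was 15756 bp wide (84658955 to 84674710, score 141, percentile 98.7), the widest of the 15, and ran on into Nacc1, which encodes a transcriptional regulator. The liver peak stopped 33 bp short of the higher coordinate of Ier2. The strand was plus for the liver peak and minus for the HEPA1-6 peak, so the direction of Ier2 was not settled and no start or end is named here.

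Ier3 (chr17:35821713-35822911) encodes a short protein that affects cell survival under stress. The same interval of 1473 bp (35822543 to 35824015) was called in both lists, with a score of 217 at percentile 99.4 in HEPA1-6 and of 79 at percentile 96.7 in liver. It covered only the last 30.8% of the gene, left the first 830 bp free, and ran 1104 bp past the end into Flot1, which encodes a flotillin of membrane rafts. The high rank is therefore that of an interval over the end of Ier3 and the boundary of its neighbour, not of the Ier3 promoter, which held no peak.

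The highest peak at a gene stood at a median percentile of 96.9 in HEPA1-6 (10 genes) and 93.3 in liver (9 genes). For genes of the length range with a peak these medians were 82.6 and 72.8, and for all protein-coding genes with a peak 79.5 and 68.7. With only peaks on no other protein-coding gene, the medians of the immediate early genes were 87.7 and 91.5. That setting left out Junb, Ier2 and Ier3 in HEPA1-6 and Ier3 in liver, and the background medians were not taken under it. Of the 9 genes with peaks in both lists, 7 had the lower percentile in liver and 2, Fosb and Jun, the higher. At Jun this holds only through the liver peak before the gene start (percentile 93.3). The liver peak on the gene stood at 87.2, against 87.7 in HEPA1-6. Among the 2060 genes of the length range with a peak in both lists the percentile was lower in liver at 87.3% and higher at 12.7%, so this direction too is that of the lists as a whole. The percentiles describe the rank within a list, since the scale of the score is not given and heights were not compared between lists. Without replicate lists, neighbouring ranks could not be set against a spread.

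**Figure D3:**
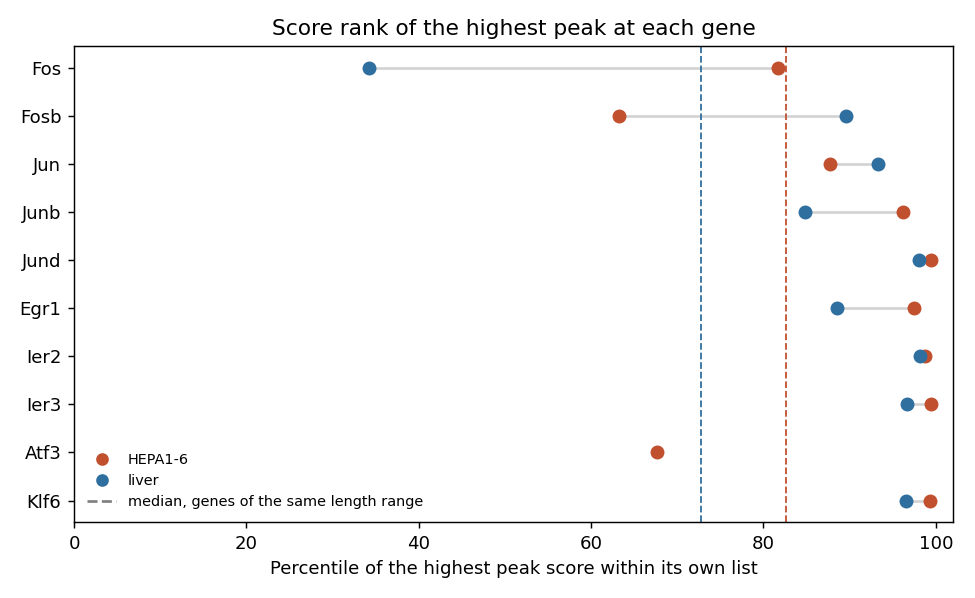
Percentile of the highest peak score at each gene within its own list, red points for HEPA1-6 and blue points for liver; dashed lines are the medians for genes of the same length range that hold a peak (82.6 in HEPA1-6, 72.8 in liver). Jund, Ier2, Ier3 and Klf6 stand above percentile 96 in both lists, and Fos has its liver point at 34.2. The peaks of Ier3 in both lists and of Ier2 and Junb in HEPA1-6 also reach another protein-coding gene.

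The liver peaks covered no more of any of the 10 genes than the HEPA1-6 peaks did. Coverage was lower in liver at 6 genes and equal at 4 (Junb, Jund, Egr1 and Ier3). Among the 2971 genes of the length range with a HEPA1-6 peak, liver coverage was lower at 82.0%, equal at 15.7% and higher at 2.32%, so this direction is that of the lists as a whole.

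Starts and ends were compared at the 8 genes with a strand in the promoter table. The gene start lay under a HEPA1-6 peak at 5 of 8 (Fos, Jun, Junb, Jund and Atf3), against 20.1% of 5896 genes of the length range with a strand, and under a liver peak at 4 of 8 (Fos, Junb, Jund and Klf6), against 12.9%. A peak on the gene ran past its end at 3 of 8, Junb, Jund and Ier3, in both lists, against 20.8% in HEPA1-6 and 10.3% in liver. These shares include genes without a peak. In HEPA1-6, 2390 of the 5896 genes held a peak, 1188 on the start and 1228 past the end. In liver these counts were 1709, 763 and 606. Beside genes with a peak, the 3 of 8 past the end was thus a lower share in HEPA1-6 and a similar one in liver. The shares at the start remained somewhat higher. The HEPA1-6 peak of Junb also reached Prdx2, and the Ier3 peak reached Flot1 in both lists. The gene end was free of peaks at Fos, Fosb, Jun and Klf6 in both lists and at Atf3 in HEPA1-6. With Egr1 and Ier2 added by the strand of peaks on these genes alone, a peak ran past the end at 5 of 10 genes in HEPA1-6 and 4 of 10 in liver, and at 5 in liver if Ier2 is read in the other direction. With only peaks on no other protein-coding gene, the 5 and 4 became 2 in HEPA1-6, Jund and Egr1, and 3 in liver. The background shares were not taken under that setting.

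The middle of the gene was covered more often than its ends. In HEPA1-6 the mean coverage of the 8 genes was 61.2% in the first of 10 equal parts of the gene, 87.5% in part 6 and 42.9% in part 10. The values for genes of the length range with a peak were 49.6%, 48.6% and 53.6%, nearly level along the gene. In liver the mean was 54.6% in part 1, 75% in part 5 and 37.5% in part 10, with Atf3 at 0 throughout, against 42.8%, 31.1% and 36.2%. In the 500 bp after the end it was 32.9% in both lists, against 49.4% and 34.4%. The 8 genes thus stood above other genes with a peak over the middle of the gene in both lists. In part 10 they stood below them in HEPA1-6 only. After the end they stood below them in both lists, in liver by little in the first 500 bp. From 500 to 1000 bp after the end the mean was 25% in both lists, against 46.4% and 30.9%. From 1000 to 500 bp before the start it was also lower, 22.6% against 35.7% in HEPA1-6 and 16.2% against 28.7% in liver.

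**Figure D4:**
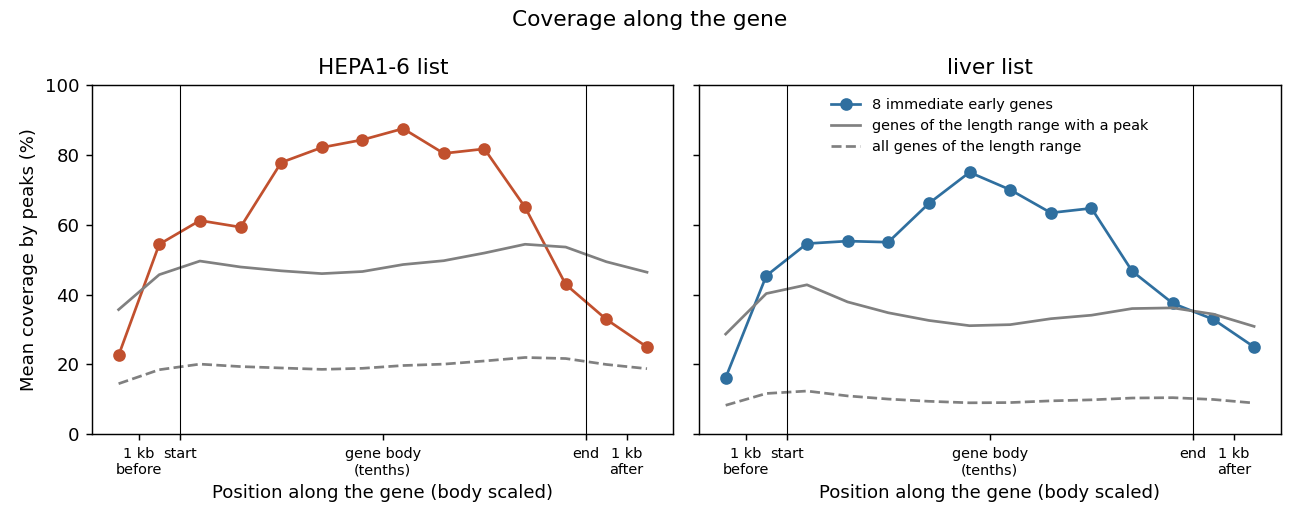
Mean coverage by peaks (%) along the gene for the 8 genes with a known strand (coloured points), for genes of the length range that hold a peak in that list (grey line) and for all genes of the length range (dashed line); the gene body is scaled to 10 parts between 1 kb on either side. Coverage of the 8 genes is highest in part 6 in HEPA1-6 (87.5%) and in part 5 in liver (75%).

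Several peaks had the same edge in both lists. Of the 12 overlapping pairs at these genes, 6 shared a start or an end to the base, at Fosb, Jun, Jund, Egr1, Ier3 and Klf6. Over all 11455 overlapping pairs of the lists the share was 46.1%, so shared edges were about as common elsewhere. Both edges were shared at Ier3. At Fos the edges differed by 145 bp and 219 bp.

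The strand given to the peaks matched that of the gene for 12 of 13 HEPA1-6 peaks and 9 of 11 liver peaks at the 8 genes. The peaks on the opposite strand were those of Junb in both lists and of Jund in liver. Over peaks that touch 1 protein-coding gene with a known strand, 92.9% in HEPA1-6 and 90.5% in liver had the strand of the gene. The 13 and 11 peaks were not limited in this way. They include peaks that reach another protein-coding gene, at Junb in HEPA1-6 and Ier3 in both lists. The liver peak before Jun, also counted, touches no protein-coding gene. On chromosome 8, where Junb, Jund and Ier2 lie, these shares were 89.9% and 86.2%. How the authors gave a strand to a peak is not stated in the sources used here, so the strand was not read as that of the RNA.

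GC content and GC skew, the excess of G over C as (G - C)/(G + C), were taken from the 8 promoter windows, since a G-rich strand behind the start is known to favour R-loops. The median GC content was 61.5%, against 56.3% over all windows, and ranged from 46.7% at Jund to 68.3% at Fosb. Windows touched by a HEPA1-6 peak had a median GC content of 63.2%, and those not touched 54.3%. In liver these medians were 63.7% and 55.3%. Jund, whose window lay wholly under peaks of both lists, was at percentile 21.0 of all windows in GC content, while Fosb, with no peak on its window, was at percentile 84.3.

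In the first 50 bases after the start, GC skew was above 0 at 7 of 8 genes, against 59.2% of all windows, with a median of 0.185 against 0.077. Klf6 (0.48, percentile 95.9), Jun (0.41, percentile 92.4) and Junb (0.40, percentile 91.9) had the highest values. Ier3 was the only gene below 0, at -0.31 (percentile 7.17), and its start lay under no peak. Fosb, at 0.21, had no peak on its start either. Of the genes with the highest values, Klf6 had no HEPA1-6 peak on its start and Jun no liver peak. For the first 50 bases, windows touched and not touched by a peak were not compared. Over whole windows the median skew was -0.020 for the 8 genes and 0.016 for all windows, and it was 0.014 for windows touched by a HEPA1-6 peak and 0.016 for those not touched. In liver these medians were 0.020 and 0.015.

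The wider response was described with gene lists from general knowledge. Of 46 other early-response genes, a peak lay at 40 (87.0%) in HEPA1-6 and at 34 (73.9%) in liver, 33 of them with overlapping peaks. Over all protein-coding genes these shares were 42.0% and 29.7%, and 26.7% held overlapping peaks. No share was taken for genes within the length range of the 46. The 6 that held no peak were Egr2, Egr3, Egr4, Nr4a3, Arc and Cebpd. The other Egr genes thus had no peak in either list, unlike Egr1. Of the Fos relatives, Fosl1 lay wholly under peaks of both lists (scores 118 and 49), and Fosl2 was covered at 51.1% in HEPA1-6 and 5.41% in liver. The median coverage of the 46 genes was 70.0% in HEPA1-6 and 26.0% in liver, beside 83.4% and 77.0% for the 10 genes. The median length was 5276 bp for the 46 and 3286 bp for the 10, and lengths were not matched.

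Among genes of the wider lists with a peak in both sources, high HEPA1-6 ranks were those of Ier5, a relative of Ier2 (score 278, percentile 99.6, liver score 114), and Mcl1, an antiapoptotic Bcl2 relative (273, percentile 99.6, liver 107). Further genes of high rank were Errfi1, an inhibitor of the EGF receptor (174, percentile 99.1, liver 73), and at equal scores of 137 (percentile 98.6) Klf10, a Krüppel-like factor (liver 80), and Nfkbia, the inhibitor of NF-kappa-B (liver 45). No gene of the wider lists had a liver peak without a HEPA1-6 peak. Myc, another immediate early gene, was covered at 100% in HEPA1-6 (score 118) and 96.3% in liver (top score 58).

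Of 26 upstream regulators, among them the serum response factor Srf, its partners of the Elk family and the MAP kinases, 22 (84.6%) held a HEPA1-6 peak and 19 (73.1%) a liver peak. Among the 16443 genes within their length range (4086 to 178456 bp) the shares were 48.2% and 33.3%, but those genes had a median length of 22388 bp and the regulators one of 57566 bp. On the regulators, peaks covered a median of 11.2% and 2.08% of the gene. Srf was covered at 92.5% in HEPA1-6 and 83.4% in liver. Of 9 other leucine zipper partners of AP-1, 6 (66.7%) held a peak in each list, against 42.0% and 29.7% of all protein-coding genes. Lengths were not matched here. Batf, Batf2 and Batf3 held none in either list.

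**Figure D5:**
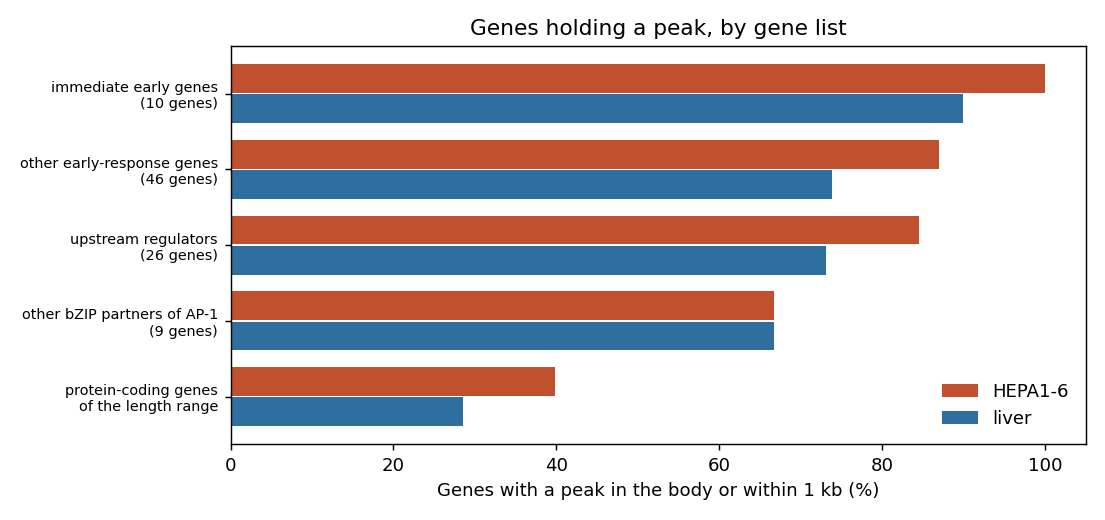
Share of genes with a peak in the body or within 1 kb (%), red bars for HEPA1-6 and blue bars for liver, for the 10 immediate early genes, 3 wider lists and all protein-coding genes of the length range. The bars stand at 100% and 90% for the 10 genes and at 39.9% and 28.6% for genes of the length range; the lists differ in gene length.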

How the data were processed

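Genomic DNA was immunoprecipitated with S9.6 after a published R-loop mapping method, sonicated to fragments of about 300 bp, amplified with 10 PCR cycles (input 4) and sequenced as paired 75 bp reads, per the labels' protocols. The submitters' processing notes name CASAVA 1.8.2, cutadapt, Bowtie2, SAMtools, bedtools and MACS2 and the build mm10, without roles or settings. Each deposited list gives a position, a whole-number score from 10 upwards and a strand per peak. The score is the authors' own, on a scale not given in the sources used here, so it was used only as a rank within a list (percentile, mid-rank for ties).

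Coordinates are 1-based on GRCm38 (mm10). Coverage is the bases of the gene body under peaks of that list. Gene strands came from the RefSeq promoter table, and for Egr1 and Ier2 from peaks on that gene alone. Exons were not used. Intervals were handled in pandas 2.3.3 and numpy 2.4.6 with functions tested on simulated data. No test between lists was possible. The genes, the wider lists and the alternatives were chosen with earlier results of these data known. All 10 genes are named whatever their values, with every protein-coding gene their peaks touch, the 5 highest HEPA1-6 ranks in the wider lists (6 with a tie, of which 1 is not reported here) and any gene with a liver peak only. No other library of the series was analysed here.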

Additional observations from a re-analysis of the deposited data

How the results depend on the processing

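Across 74 alternatives for 11 results, 54 values stayed within 1.5 times a count or equal for a median, and 20 moved. Some of the 54 could not move. Cutting the HEPA1-6 list to the number of liver peaks left the liver list unchanged, so its liver values were fixed in advance. So was the HEPA1-6 median coverage over genes with a peak, since all 10 held one. The 10 genes with a HEPA1-6 peak came to no fewer than 7 and the 9 with a liver peak to no fewer than 6. The 9 genes with overlapping peaks came to 6 with only peaks on the strand of the gene, with that setting and Ier2 turned, with an overlap of 50% of both peaks, and with only peaks on no other protein-coding gene. Only peaks with the strand of the gene gave a median coverage of 68.7% (HEPA1-6) and 44.4% (liver), a HEPA1-6 percentile of 92.6, and 3 and 2 genes with a peak past the end. Junb lost its peaks in both lists and Jund in liver. Egr1 kept its peaks by construction, as its strand came from them. Ier2 lost its HEPA1-6 peak because its strand was read from the liver peak. With Ier2 turned, an alternative added after seeing the data, it lost the liver peak instead: 9 and 6 genes held a peak, coverage was 75.3% and 29.3%, percentiles were 97.5 and 91.5, and 2 liver genes had a peak past the end. Only peaks on no other protein-coding gene, which drops Ier3 in both lists and Junb and Ier2 in HEPA1-6, gave a HEPA1-6 coverage of 68.7%, percentiles of 87.7 and 91.5, and 2 HEPA1-6 genes past the end. The higher-scoring 50% of each list, without the liver peak of Fos, gave a liver coverage of 64.4% and percentile of 94.9. Without a flank the liver percentile was 89.6, since the highest peak at Jun lies before the gene. Over genes with a peak the liver coverage was 83.4%. A minimum of 500 bp past the end left 2 liver genes. Only genes with a strand in the promoter table, also added after seeing the data, left 3 HEPA1-6 genes past the end. No paired analysis was possible because each source has 1 merged list, and for the same reason no replicate was left out. The unknown depth limits every statement on a missing peak, such as the liver peak of Atf3.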
